A study of Mus musculus with 12 samples.

Results

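Diabetic nephropathy was compared with normal renal cortex across the whole transcriptome, using RNA-seq counts from 8 of the 12 libraries of the series, 4 labelled diabetic nephropathy (DN) and 4 labelled normal control (NC). Every gene that passed a filter on low counts was a member of the comparison, which gave 17530 genes of the 46095 gene symbols listed. The other 4 libraries, from diabetic mice given sodium butyrate, entered the filter, the scaling and the estimate of the spread. The comparison itself was DN against NC. NC and DN mice share the strain label C57BL/6, the age label 12 weeks and the tissue label renal cortex, and they differ in the disease label. The labels do not say how diabetes was induced, how long it lasted, or which animal gave which library, so the p-values measure only the spread between these samples, which may be technical. No label gives a batch, so any batch and the disease group cannot be told apart.

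The renal cortex is mostly proximal tubule, an epithelium that takes up filtered glucose, amino acids, phosphate and organic ions and burns fatty acids to pay for it. In diabetic kidney disease this epithelium faces a high load of glucose and lipid, and the disease is known for changes of the filter, scarring of the space between the tubules, immune signalling and altered metabolism. In bulk tissue, fewer cells of a type and less RNA per cell cannot be told apart.

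Total counts ran from 61734412 to 65781183 in NC and from 58394975 to 70674015 in DN. The extraction protocol names another organ, prefrontal cortex, so organ genes were checked. The megalin gene Lrp2 had 547305 to 852758 counts and the uromodulin gene Umod 165229 to 481314, while the neuronal genes Snap25 and Slc17a7 had 0 and 0 to 2 counts. Over the 500 most variable genes, the first principal component (62.3% of the variance) placed the NC libraries between -32.76 and -31.54 and the DN libraries between 28.78 and 37.91. The second component (13.9%) set DN replicate 4 apart at 35.43, with the other DN libraries between -18.69 and -10.62 and NC between -0.97 and 4.44. DN replicate 4 was at least 2-fold above all other 7 libraries for 121 genes, against 3 to 12 genes for the other DN libraries and 3 to 24 for the NC libraries. Its 6 tested neutrophil genes summed to 28.4 CPM (counts scaled to library size), against 3.14 to 4.76 in NC, and its 6 red blood cell genes summed to 297.1 CPM, against 99.2 to 187.1 in NC. The overall counts are therefore given with and without DN replicate 4, and those of a list also where leaving it out moved them by over 1.5 times. Mitochondrially encoded genes took 0.494% to 1.04% of counts in NC, 2.77%, 2.9% and 2.6% in DN replicates 1, 2 and 4, and 0.361% in DN replicate 3. Of their 17 tested genes 3 were called higher, and none of the 3 held in all 4 DN libraries.

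At an adjusted p under 0.05 in edgeR's quasi-likelihood test, 669 genes were higher in DN, which is 3.82% of the genes tested, and 774 were lower, 4.42%. Together 1443 genes, or 8.23%, were called. The median absolute log2 fold change was 0.97 among genes called higher and 1.07 among genes called lower, and 325 and 418 of them passed 1 on the log2 scale. Over all genes tested the median log2 fold change was 0.01 and the median standard error was 0.20. All 4 DN libraries lay above all 4 NC libraries for 1027 genes (5.86%) and below them for 1313 genes (7.49%), whether or not a gene was called.

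A call was taken to hold in all 4 DN libraries when each DN library lay beyond every NC library and the call stood with each DN library left out in turn. This held for 390 genes called higher (2.22% of the genes tested, 58.3% of those called higher) and for 474 called lower (2.7% and 61.2%), together 4.93% of the genes tested. Among genes called higher, 585 had 4 DN libraries above all NC libraries, 78 had 3 and 6 had 2. Among genes called lower, 722 had 4 DN libraries below all NC libraries, 46 had 3, 2 had 2 and 4 had 1. Without DN replicate 4, 950 genes were called higher (5.42%) and 1013 lower (5.78%). Of the 1443 calls, 1295 remained without it, 148 were lost, and 668 further genes were called. The number called higher was 405 without NC replicate 1 and 426 without NC replicate 3, and without NC replicate 1, 252 genes called higher and 301 called lower held. Scaled by library size alone, with no TMM factors, 503 genes were higher and 1103 lower, and the median log2 fold change of all genes was -0.08. Fitted and scaled with the 8 NC and DN libraries alone, 481 genes were higher and 595 lower, and 285 and 346 held. Of the 1443 calls, 1017 remained in that fit.

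**Figure D1:**
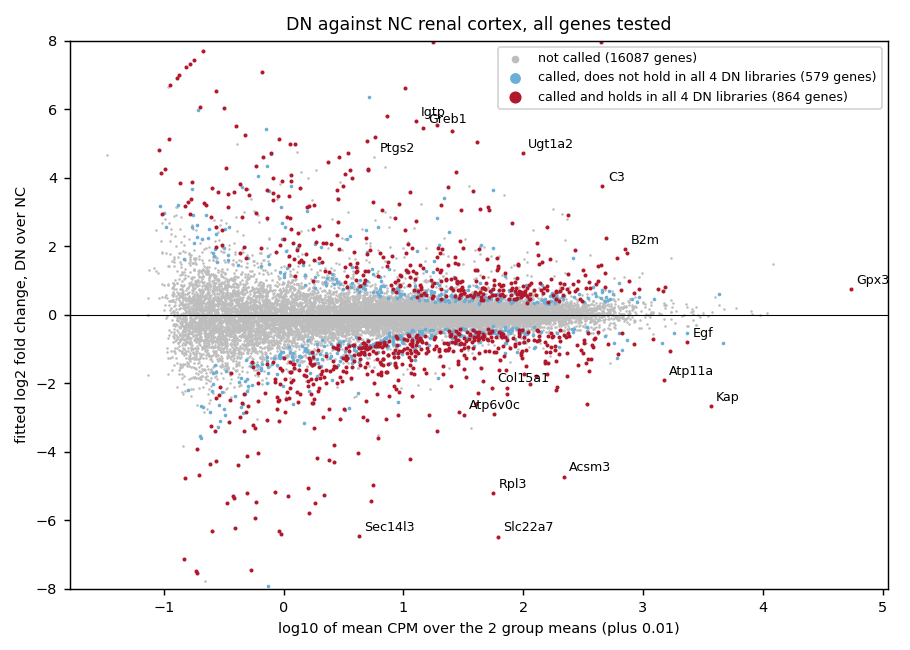
Fitted log2 fold change of DN over NC against mean level (log10 CPM) for the genes tested, 1 point per gene, with 19 genes outside the vertical range shown. The 864 genes that held in all 4 DN libraries (red) span the range of levels, from genes under 1 CPM to Gpx3, and many called genes that did not hold (blue) lie at small fold changes.

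Fold changes were ranked among holding genes with a mean of at least 5 CPM in the higher group, without predicted genes, and genes under that level could have larger ones. The largest increases so ranked were led by genes that were near silent in NC. Igtp, an interferon-induced GTPase of cell-autonomous defence, had 0.413, 0.263, 0.392 and 0.888 CPM in NC replicates 1 to 4 and 23.7, 5.16, 31.8 and 38.8 CPM in DN replicates 1 to 4 (adjusted p = 0.00437, log2 fold change 5.65, SE 0.95). All 4 DN libraries were above all NC libraries, with DN replicate 2 the lowest of the DN libraries. Mrps23, a protein of the small mitochondrial ribosomal subunit, had 0.934, 0.820, 0.874 and 0.541 CPM in NC and 38.1, 38.1, 39.5 and 32.8 CPM in DN (adjusted p = 1.92e-10, log2 fold change 5.55, SE 0.17), and the 4 DN values lay close together. Greb1, an oestrogen-responsive gene, had 1.07, 0.882, 0.422 and 0.236 CPM in NC and 31.7, 25.3, 31.2 and 25.5 CPM in DN (log2 fold change 5.45), also with no overlap. Pianp (log2 fold change 5.18), Cuedc1 (4.21), the phosphatase gene Ctdnep1 (4.23) and the chemokine gene Cxcl16 (4.10) were also under 1 CPM in each NC library and at 4.08 CPM or more in each DN library.

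The other 5 genes among the 12 largest increases were of different kinds. Ugt1a2, an enzyme that attaches glucuronic acid to bilirubin and drugs, rose from 7.27 ± 3.88 to 192 ± 78.6 CPM (mean ± SD, n = 4; log2 fold change 4.72). The complement genes C4b (log2 fold change 4.17) and C1rb (3.76) rose in all 4 DN libraries, with DN replicate 2 the lowest at 8.62 and 2.55 CPM. Srsf1, a splicing factor, had 0.322, 0.604, 0.301 and 0.555 CPM in NC and 8.51, 8.16, 1.92 and 9.61 CPM in DN (log2 fold change 3.98), and DN replicate 3 was well below the other DN libraries. Adamts4, a protease that cuts the proteoglycan aggrecan, had 0.536, 0.588, 0.512 and 0.361 CPM in NC and 1.14, 1.78, 4.32 and 31.0 CPM in DN. Its log2 fold change was 4.25 (SE 0.96, adjusted p = 0.0203) and 2.25 without DN replicate 4, whose value was the highest. The call was lost without any 1 of the 4 NC libraries, and in 8 of the 17 alternatives in all.

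The 12 largest decreases, ranked with the same minimum of 5 CPM, began with Slc22a7. Slc22a7, the organic anion transporter OAT2, had 109.7, 98.2, 159 and 119.6 CPM in NC replicates 1 to 4 and 0.909, 1.67, 1.67 and 1.16 CPM in DN replicates 1 to 4 (adjusted p = 4.62e-06, log2 fold change -6.49, SE 0.45). The lowest NC library was far above the highest DN library. Sec14l3, a lipid-binding protein, had 6.14, 7.65, 12.8 and 6.96 CPM in NC and 0.157, 0.0880, 0.0151 and 0.113 CPM in DN (log2 fold change -6.47). Acsm3, a medium-chain acyl-CoA synthetase, had 219.6, 279, 462 and 725 CPM in NC and 16.7, 17.8, 10.2 and 18.4 CPM in DN (adjusted p = 2.66e-05, log2 fold change -4.74, SE 0.41), and the NC libraries spanned a wide range that stayed clear of DN. Ces1g, a carboxylesterase (log2 fold change -4.21), and Mfsd2a, a transporter of lysophospholipids (-3.40), fell as well, and Mfsd2a had 1 high NC library at 82.5 CPM beside 17.9 to 20.2 CPM in the others.

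Jchain, the joining chain of secreted antibodies and a plasma cell gene, had 20.7, 9.89, 6.55 and 4.47 CPM in NC and 0.533, 0.158, 0.106 and 0.145 CPM in DN (log2 fold change -5.45). Rpl3, a ribosomal protein of the large subunit, had 120.3, 115, 112 and 92.1 CPM in NC and 3.04, 2.25, 3.03 and 3.47 CPM in DN (adjusted p = 0.0126, log2 fold change -5.22, SE 1.04), while 37 of the 39 tested cytosolic ribosome genes were not called. The potassium channel subunit Kcng1 (log2 fold change -4.29), the collagen VI chain Col6a6 (-4.04), the meiotic cohesin subunit Rec8 (-3.61), the signalling ligand Wnt11 (-3.04) and Methig1 (-3.06) completed these 12. The DN libraries stayed below all NC libraries for each of these genes.

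**Figure D2:**
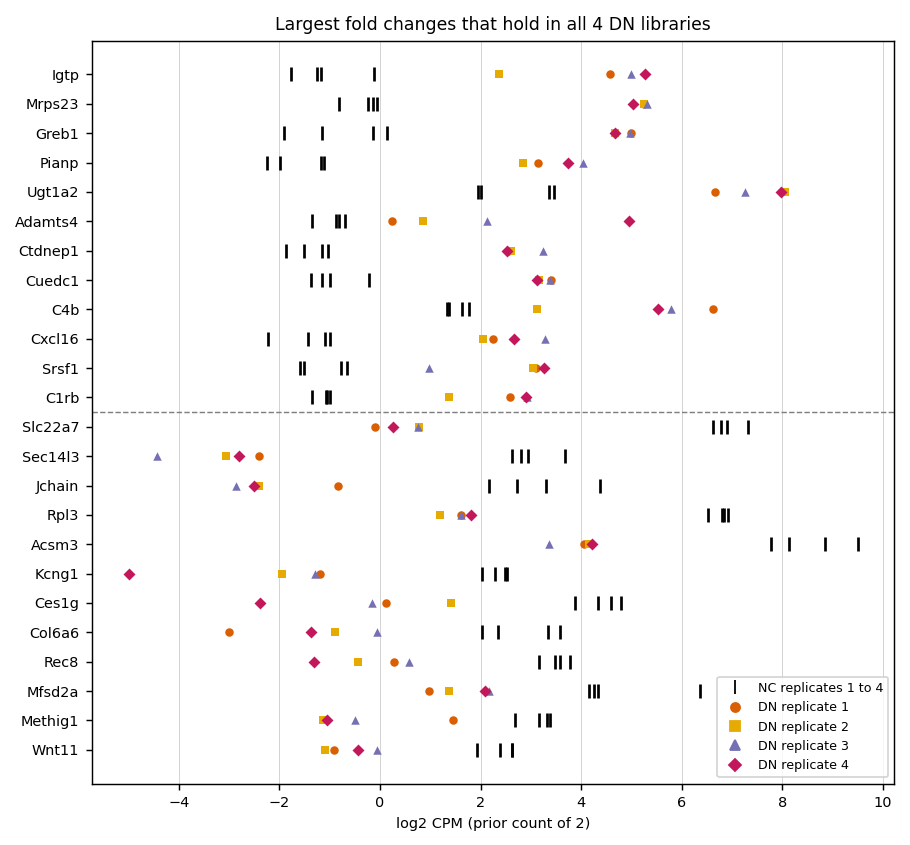
Log2 CPM in each library of the 12 largest increases (above the dashed line) and 12 largest decreases (under it) that held in all 4 DN libraries at a mean of at least 5 CPM in the higher group, with black ticks for NC and 1 coloured symbol per DN library. No DN symbol lies within the NC ticks of its gene, and the spread among DN libraries differs from gene to gene, from Mrps23 (32.8 to 39.5 CPM) to Adamts4 (1.14 to 31.0 CPM).

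Ranked by the difference in CPM instead of the fold, the increases that held began with Gpx3. This gene, the glutathione peroxidase that the proximal tubule secretes, rose from 40650 ± 6271 to 67790 ± 7378 CPM (adjusted p = 0.00522, log2 fold change 0.74, SE 0.14). B2m, the light chain of class I antigen-presenting molecules, rose from 296 ± 25.1 to 1120 ± 543 CPM (log2 fold change 1.92) and the complement gene C3 from 63.7 ± 13.4 to 854 ± 471 CPM (3.75). The lipid transporter gene Abca3 (0.81), the apolipoprotein gene Apob (1.80), the lysosomal protease gene Lgmn (0.69), the phosphatase gene Alpl (0.97) and Pigr, which carries antibodies across epithelia (1.66), rose with them. C3 was lowest among DN libraries in replicate 2, at 258.6 CPM, and Pigr likewise at 393.9 CPM, each above the highest NC library.

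Among the largest decreases in CPM, Kap, the androgen-regulated protein of the proximal tubule, had 4043, 6618, 7934 and 6823 CPM in NC replicates 1 to 4 and 1471, 1419, 605 and 483 CPM in DN replicates 1 to 4 (adjusted p = 0.000845, log2 fold change -2.67, SE 0.38). Atp11a, a flippase that moves phospholipids across the membrane, fell from 2348 ± 444 to 622 ± 66.8 CPM (log2 fold change -1.92). Egf, the growth factor of the thick ascending limb, fell from 2995 ± 529.9 to 1708 ± 418 CPM (-0.81, adjusted p = 0.0118), with the highest DN library at 2249 CPM and the lowest NC library at 2360. The brush-border peptidases Mep1a (-1.05) and Ace, the angiotensin-converting enzyme (-1.64), the dipeptidase Cndp2 (-0.87), the deacylase Acy3 (-1.14) and Sepp1, the selenium carrier (-0.72), fell in all 4 DN libraries. Rpsa, a ribosomal protein also known as the laminin receptor, fell from 585 ± 80.2 to 96.6 ± 16.2 CPM (-2.60).

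To describe the transcriptome by function, 83 lists of genes were counted, holding 1634 tested symbols. A gene can stand in more than 1 list. Each list is read against the 8.23% of all genes that were called. In 43 lists the share called was at least 2 times that value. In 9 lists with 113 tested members edgeR called 0 members, where 20 had an unadjusted p under 0.05, DESeq2 called 8 and limma-voom 1. The lists in which members moved were spread over transport, lipid and drug metabolism, immune defence and matrix. The machinery lists for respiration, protein synthesis and the proteasome stayed near or under the background. The lysosome and autophagy list did not, with 4 of 32 members higher and 2 lower (18.8% called).

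**Figure D3:**
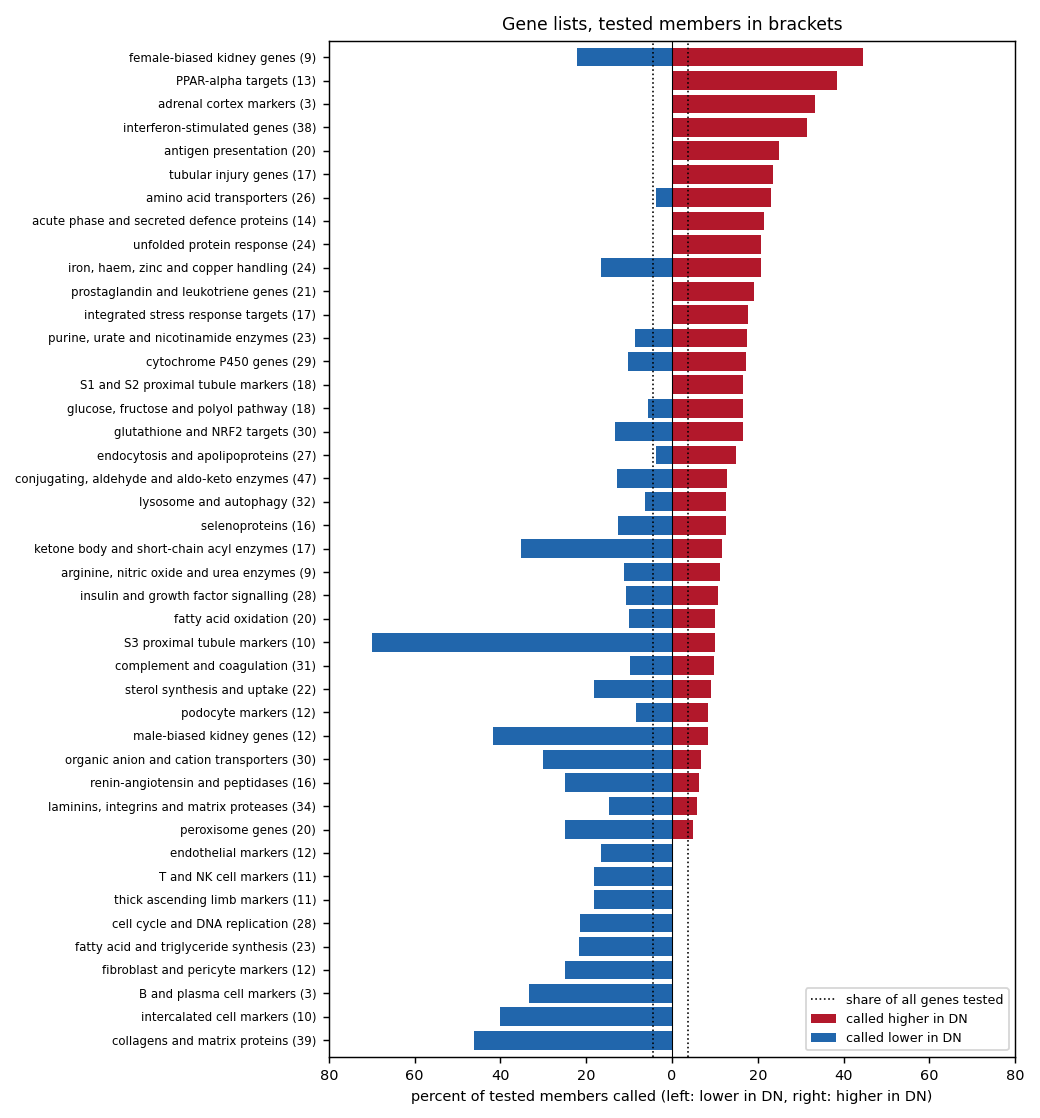
Percent of tested members called higher (red, right) and lower (blue, left) in DN for the 43 lists in which at least 2 times the background share was called, with the tested members in brackets and dotted lines at 3.82% and 4.42%. Collagens and matrix proteins (18 of 39 lower) and interferon-stimulated genes (12 of 38 higher) each moved in 1 direction, and drug-metabolizing lists moved in both.

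Tubule segments differed in how many of their genes moved. Of the 10 genes marking S3, the last straight segment of the proximal tubule, 7 fell and 1 rose, with 6 and 1 holding in all 4 DN libraries and a median log2 fold change of -2.06. Of the 18 genes marking the S1 and S2 segments, 3 rose, and the median was 0.25. Called higher without DN replicate 4 were 5 of the S1 and S2 genes and 2 of the S3 genes. The thick ascending limb list had 2 of 11 members lower and the intercalated cell list 4 of 10, while the 8 principal cell genes were among the lists with no call. The podocyte list had 1 of 12 higher and 1 lower, and 2 lower without DN replicate 4.

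Transporters of organic anions and cations, which carry drugs and metabolites into urine, were called lower more often than higher. In all, 9 of 30 fell and 2 rose, and without DN replicate 4 the counts were 8 and 4. Beside Slc22a7, the uptake carrier Slc22a19 had 76.8, 92.4, 95.9 and 135 CPM in NC and 12.9, 14.3, 11.4 and 15.3 CPM in DN (adjusted p = 0.000181, log2 fold change -2.89, SE 0.33), Slc22a26 fell by 2.93 on the log2 scale, and Slc22a2, the cation transporter OCT2, by 1.13. The 2 that rose were the efflux pumps Abcc3, from 8.99 ± 2.29 to 31.1 ± 5.71 CPM (log2 fold change 1.79), and Abcc4, from 143 ± 24.2 to 328 ± 38.5 CPM (1.2). All 6 of these genes held in the 4 DN libraries.

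Amino acid carriers rose more often than they fell, with 6 of 26 higher and 1 lower. Slc3a2, the heavy chain shared by several exchangers, rose from 282 ± 37.4 to 525 ± 134 CPM (log2 fold change 0.90), Slc7a7, its basolateral partner for cationic amino acids, by 0.79 and the aromatic amino acid carrier Slc16a10 by 0.48, a call lost without NC replicate 1. Slc6a19, the main apical carrier of neutral amino acids, was called higher (0.93, adjusted p = 0.0161), but DN replicate 4 at 571.7 CPM fell below NC replicate 4 at 641.4. The exception was Slc7a13, an S3 transporter, which fell from 309.5 ± 58.8 to 67.3 ± 30.1 CPM (-2.20).

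Of 18 genes of the glucose, fructose and polyol pathway 3 were higher and 1 lower, and 5 and 1 without DN replicate 4. Slc5a10, a sodium-coupled carrier of mannose and fructose, had 229.8, 252, 247 and 190.5 CPM in NC and 578, 561, 911 and 385 CPM in DN (log2 fold change 1.41), and Slc2a2, the basolateral glucose carrier GLUT2, rose by 0.75, both holding. Slc5a8, a sodium-coupled carrier of lactate and short-chain fatty acids, fell by 0.87 on the log2 scale. The sodium pump and ion channel list was under the background, with 2 of 26 called (7.69%), among them the sodium-proton exchanger Slc9a8, which fell by 1.41, and without DN replicate 4 it had 2 higher and 3 lower. Of 9 genes of the distal convoluted and connecting tubule 1 was called. It was Pvalb, a calcium-binding protein of the early distal convoluted tubule, which rose from 21.8 ± 5.93 to 139 ± 45.4 CPM (2.67, adjusted p = 3.88e-05).

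Peptidases of the brush border and of the renin-angiotensin system fell in 4 of 16 cases and rose in 1. Beside Ace and Mep1a, Mep1b, the second meprin chain, had 147, 149, 209.7 and 224 CPM in NC and 45.2, 59.2, 47.2 and 27.2 CPM in DN (log2 fold change -2.03). Mme, or neprilysin, was called lower (-0.84, adjusted p = 0.0357), but the call was lost without DN replicate 1, 2 or 3. Cpn1, a circulating carboxypeptidase, rose by 0.87 and held.

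Fatty acid metabolism split by enzyme. Of 13 genes listed as targets of PPAR-alpha, the nuclear receptor that senses fatty acids, 5 rose. Acadm, Crot, Ehhadh and Abcd3, which fell, were counted in other lists and not in this one. Cyp4a14, which hydroxylates fatty acids at their far end, had 169, 251, 104 and 171 CPM in NC replicates 1 to 4 and 822, 682, 1110 and 660.2 CPM in DN replicates 1 to 4 (adjusted p = 0.000203, log2 fold change 2.24, SE 0.27). All DN libraries were above all NC libraries. Cyp4a10 rose by 0.98. Plin2, the coat protein of lipid droplets, was called higher (0.43) and lost the call without DN replicate 1 or 3. Of 20 fatty acid oxidation genes 2 rose and 2 fell, and 4 and 2 were called without DN replicate 4. Among them Eci1, an isomerase of mitochondrial beta-oxidation, rose by 0.94.

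Of 20 peroxisome genes 5 fell and 1 rose, and 5 and 3 were called without DN replicate 4. Crot, which exports shortened fatty acids as carnitine esters, had 178, 176, 209.5 and 302 CPM in NC and 104, 81.8, 61.8 and 94.0 CPM in DN (log2 fold change -1.34). Ehhadh, the bifunctional enzyme of peroxisomal beta-oxidation, fell by 0.86 on the log2 scale, the fatty acid importer Abcd3 by 0.62 and the racemase Amacr by 0.79, a call lost without NC replicate 3. Hao2, a peroxisomal hydroxyacid oxidase, was the 1 that rose, from 181 ± 38.4 to 450.2 ± 124 CPM (1.31). Acadm, the mitochondrial medium-chain dehydrogenase, fell from 404 ± 52.4 to 242 ± 22.6 CPM (-0.74).

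Enzymes of ketone bodies and short-chain acids moved in both directions, with 6 of 17 lower and 2 higher. Bdh1, which interconverts the ketone bodies, had 266, 214, 257 and 245 CPM in NC and 80.3, 87.0, 81.5 and 47.1 CPM in DN (adjusted p = 6.35e-05, log2 fold change -1.73, SE 0.19), and Acat1, the thiolase that cleaves acetoacetyl-CoA, fell by 0.82 on the log2 scale. The acyl-CoA synthetase Acss3 fell by 0.82 and Acsm1 rose by 0.89. These 4 genes held in all 4 DN libraries.

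Lipid synthesis genes were called lower more often than higher with all libraries. Of 23 genes for making fatty acids and triglycerides 5 fell and 18 were not called, with a median log2 fold change of -0.09, and without DN replicate 4, 5 were called lower and 4 higher. Of 22 genes for sterols 4 fell and 2 rose. Scd1, which desaturates stearate, had 434, 388, 384 and 490.3 CPM in NC and 131, 189.5, 99.6 and 192 CPM in DN (adjusted p = 0.000443, log2 fold change -1.47, SE 0.20), and the NADPH-producing malic enzyme Me1 fell from 435 ± 49.9 to 202 ± 29.7 CPM (-1.11). Lpin1, a phosphatidate phosphatase, fell by 1.10 on the log2 scale. Acaca, which makes malonyl-CoA, was called lower (-0.50), with DN replicate 4 just above NC replicate 4.

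In the sterol pathway, Hmgcs1, the cytosolic synthase of an early step, had 538, 438, 465 and 489 CPM in NC and 235, 196, 118 and 175 CPM in DN (adjusted p = 0.00197, log2 fold change -1.41, SE 0.23). Cyp51 fell by 1.74 on the log2 scale and Idi1 by 1.26, and each held in all 4 DN libraries, though Idi1 lost its call without NC replicate 3. Nsdhl (0.74, adjusted p = 0.0266) and Sqle (0.62, adjusted p = 0.0369), enzymes of the same pathway, were called higher, but neither held, and Sqle lost its call without DN replicate 1, 3 or 4. The fatty acid receptor Cd36 fell from 123 ± 46.8 to 24.5 ± 8.46 CPM (-2.33), while the apolipoprotein genes Apoe (1.15) and Apoh (1.82) rose with Apob.

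**Figure D4:**
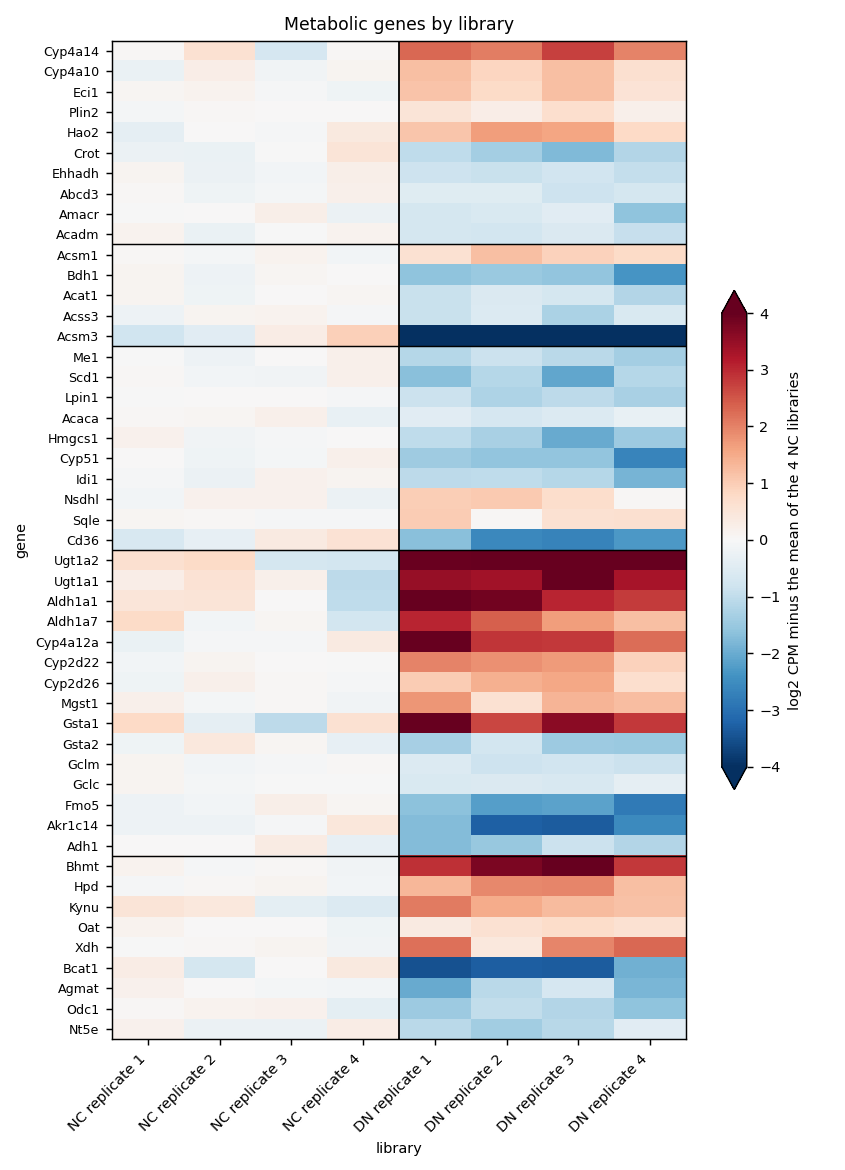
Log2 CPM minus the NC mean for metabolic genes (rows) in the 8 libraries (columns), in 5 blocks for fatty acid oxidation, ketone and short-chain acyl enzymes, lipid and sterol synthesis, detoxification, and amino acids with polyamines. Colours saturate at 4 on either side. Most genes have 1 colour across the 4 DN columns, and DN replicate 4 is paler for Nsdhl and darker for Cyp51 and Bdh1.

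Drug and aldehyde metabolism moved in both directions. Of 47 conjugating, aldehyde and aldo-keto enzymes 6 rose and 6 fell, and of 29 cytochrome P450 genes 5 rose and 3 fell. Without DN replicate 4, 12 of the 47 were called higher and 6 lower, and 10 of the 29 were called higher and 3 lower. Aldh1a1, which makes retinoic acid, had 7.41, 7.54, 5.33 and 2.57 CPM in NC and 123, 77.1, 44.0 and 36.7 CPM in DN (adjusted p = 0.000465, log2 fold change 3.62, SE 0.45), and its close relative Aldh1a7 rose by 2.15. Because such copies can share reads, their sum was also taken, and it went from 16.6 ± 6.59 to 118.4 ± 66.4 CPM. Ugt1a1 rose by 3.73, and the sum of 7 Ugt1a genes, which share exons, went from 275.5 ± 75.0 to 625.2 ± 147.9 CPM.

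Cyp4a12a had 8.51, 9.78, 9.79 and 13.2 CPM in NC and 169.8, 74.7, 72.3 and 47.9 CPM in DN (log2 fold change 3.14), and the 6 Cyp4a genes together went from 789 ± 155.1 to 1826 ± 342.9 CPM. Cyp2d22 (1.65), Cyp2d26 (1.2) and Cyp2f2 (2.12) rose and held. Among genes that fell, the flavin monooxygenase Fmo5 had 103, 111, 141 and 125 CPM in NC and 38.2, 25.7, 26.8 and 16.8 CPM in DN (log2 fold change -2.16), and the steroid-converting aldo-keto reductases Akr1c14 and Akr1c18 fell by 2.60 and 3.80 on the log2 scale. The alcohol dehydrogenase Adh1 fell by 1.30. Cyp7b1 (-1.85) and Cyp4b1 (-0.84) were called lower and did not hold.

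Of 30 genes for glutathione and NRF2 targets, 5 rose and 4 fell. Both subunits of glutamate-cysteine ligase, the first step of glutathione synthesis, fell and held, Gclm from 170.2 ± 11.0 to 102 ± 9.69 CPM (adjusted p = 0.000629, log2 fold change -0.74, SE 0.11) and Gclc from 204 ± 11.6 to 139 ± 13.4 CPM (-0.55). Mgst1, a membrane-bound transferase, rose by 1.29. The transferase Gsta2 fell by 1.25 on the log2 scale while its copy Gsta1 rose by 3.45 at under 3 CPM, and their sum went from 139.2 ± 33.1 to 59.9 ± 15.1 CPM. Ggt1, which breaks down glutathione at the brush border, was called lower (-0.54, adjusted p = 0.0442) and lost the call without DN replicate 1. Of 16 tested NADPH oxidase, superoxide dismutase and peroxiredoxin genes edgeR called 0, with 1 at an unadjusted p under 0.05 and 1 called by DESeq2.

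Of 37 genes of amino acid breakdown 3 rose and 3 fell, of 31 for methionine, choline, one-carbon units and polyamines 1 rose and 3 fell, and of 23 for purines, urate and nicotinamide 4 rose and 2 fell. The counts called higher without DN replicate 4 were 6 of the 37 and 2 of the 31. Bhmt, which remethylates homocysteine with betaine, had 1.90, 1.67, 1.81 and 1.58 CPM in NC and 13.2, 24.1, 33.2 and 12.5 CPM in DN (adjusted p = 1.24e-05, log2 fold change 3.58, SE 0.31), and no DN library came near NC. Hpd, of tyrosine breakdown, rose from 81.3 ± 4.80 to 253 ± 66.6 CPM (1.64), Kynu, of tryptophan breakdown, by 1.47, and the ornithine aminotransferase Oat by 0.58. Xdh, the enzyme that makes urate, rose from 115 ± 7.42 to 423 ± 186 CPM (1.88), with DN replicate 2 at 154.8 CPM and NC at 105.2 to 122.8.

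Bcat1, the cytosolic aminotransferase of branched-chain amino acids, had 34.1, 16.9, 28.0 and 36.2 CPM in NC and 2.44, 2.78, 2.75 and 7.26 CPM in DN (log2 fold change -2.92). Dbt, a subunit of the complex that acts next on these amino acids, fell by 0.45 on the log2 scale. Odc1, the first enzyme of polyamine synthesis, fell from 525 ± 87.8 to 214 ± 41.3 CPM (-1.29, adjusted p = 0.000591), and Agmat, which makes the same product from agmatine, fell by 1.33. Nt5e, which makes adenosine outside the cell, fell by 0.99.

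Metal handling moved in both directions, with 5 of 24 genes higher and 4 lower, and 3 higher and 4 lower without DN replicate 4. Cp, the copper-carrying ferroxidase ceruloplasmin, rose from 24.6 ± 2.26 to 76.2 ± 47.1 CPM (1.63), and 1.11 without DN replicate 4. Trf, transferrin, rose by 1.0 and Hfe, a regulator of iron sensing, by 0.72, and the haemoglobin scavenger Hp was called higher (1.98) but lost the call without DN replicate 2 or 4. The importers Slc11a2, for iron, and Slc39a8, for zinc and manganese, fell by 0.77 and 0.69 on the log2 scale. Dio1, the selenoenzyme that activates thyroid hormone, had 46.7, 34.4, 41.9 and 43.2 CPM in NC and 14.8, 18.1, 16.6 and 12.1 CPM in DN (log2 fold change -1.43).

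Genes of interferon response rose. Of 38 interferon-stimulated genes 12 were higher, and 5 of these held in all 4 DN libraries. None was lower, with 0 at an unadjusted p under 0.05 and 0 called by DESeq2 or limma-voom. Without DN replicate 4, 5 were called higher. The median log2 fold change of the 38 was 1.26. Interferons act through the factors STAT and IRF, which bind an element in target promoters called ISRE. Xaf1, a cell death regulator, had 6.43, 5.57, 5.81 and 7.97 CPM in NC and 52.9, 44.5, 48.0 and 71 CPM in DN (adjusted p = 0.000346, log2 fold change 3.07, SE 0.38). Irf7, the factor that amplifies interferon production, had 56.5, 36.9, 48.0 and 44.2 CPM in NC and 292, 208, 179 and 404 CPM in DN (log2 fold change 2.55). The DN values of both genes were clear of NC. Oasl1 (1.94), Usp18, a brake on the receptor (1.31), and Bst2, which tethers virus particles (1.91), completed the 5.

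Bst2, Isg15, a ubiquitin-like modifier, Ifit1 and Ifit3 were chosen after their values were seen, to show promoters that hold the element. Isg15 (log2 fold change 1.38), Ifit1 (2.42) and Ifit3 (1.93) had all 4 DN libraries above NC. Without DN replicate 4 each lost its call (adjusted p = 0.0701, 0.074 and 0.0762). Each also lost it without any 1 NC library, Ifit1 without any other DN library and Ifit3 without DN replicate 1 or 3. Irf9 (0.93) and Dhx58 (1.2) lost theirs without DN replicate 4 as well. Both also lost it without DN replicate 2 or without NC replicate 1, 2 or 3, and Irf9 without DN replicate 3. The 10-base core searched was GAAA and a second GAAA after 2 bases of any kind, on either strand, with overlapping matches allowed. It occurred in promoters of 18 of the 29 listed genes found in RefSeq (62.1%), of 6 of the 10 called and of 1 of the 4 that held. Of all 27025 genes with a promoter window, 3.99% had it in any of their windows. The windows run from 250 bases before to 50 after the start. A match of letters is not a bound site. The stretches around it, from RefSeq on GRCm38.p6 with matching bases in capitals, read 5′ to 3′ as follows.
Isg15, chr4:156200830-156200941, minus strand: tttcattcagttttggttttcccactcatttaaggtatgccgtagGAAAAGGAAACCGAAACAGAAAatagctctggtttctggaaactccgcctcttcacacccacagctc
Ifit1, chr19:34640740-34640858, plus strand: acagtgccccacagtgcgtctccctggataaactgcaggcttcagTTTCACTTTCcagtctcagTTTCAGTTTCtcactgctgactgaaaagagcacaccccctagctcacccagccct
Ifit3, chr19:34583328-34583461, plus strand: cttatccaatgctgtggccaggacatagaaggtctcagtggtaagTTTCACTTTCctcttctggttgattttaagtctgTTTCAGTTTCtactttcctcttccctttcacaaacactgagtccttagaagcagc
Bst2, chr8:71537542-71537647, minus strand: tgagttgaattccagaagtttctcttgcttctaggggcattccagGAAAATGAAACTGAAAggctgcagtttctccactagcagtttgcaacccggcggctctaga

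Antigen presentation rose in 5 of 20 genes, and 2 held, B2m and H2-K1. H2-K1, a class I heavy chain, had 13.9, 10.2, 12.3 and 8.42 CPM in NC and 171, 42.2, 95.2 and 62.9 CPM in DN (adjusted p = 0.00145, log2 fold change 3.05, SE 0.45). DN replicate 2 was the lowest DN library for H2-K1, and over the 20 genes its median log2 difference from NC was -0.16, against 1.73 to 1.98 in the other DN libraries. Tapbp, which loads class I molecules, was called higher (1.84), but DN replicate 2 at 2.32 CPM lay within the NC range of 1.66 to 2.89, and H2-T23 (1.66) lost its call without DN replicate 1, 3 or 4. Complement and coagulation genes moved both ways, with 3 of 31 higher and 3 lower (3 and 1 without DN replicate 4), and the sum of C4a and C4b went from 2.90 ± 0.43 to 61.8 ± 44.8 CPM. Fgg, a fibrinogen chain, was called higher (2.83) and lost the call without DN replicate 3.

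Of 14 macrophage and dendritic cell genes 2 fell, and of 11 T and NK cell genes 2 fell. Without DN replicate 4, 5 of the 14 were called lower and 1 higher. With all libraries edgeR called 0 of the 14 higher. Higher in DN were 2 of the 14 at an unadjusted p under 0.05, and DESeq2 called 2 and limma-voom 1 of them. Csf1r, the receptor macrophages need to survive, had 114, 113, 118 and 99.3 CPM in NC and 51.0, 53.1, 59.2 and 73.4 CPM in DN (adjusted p = 0.000266, log2 fold change -0.91, SE 0.12), and the scavenger receptor Mrc1 fell by 1.11 on the log2 scale. Cd4, the T helper co-receptor, fell from 3.19 ± 0.646 to 1.02 ± 0.361 CPM (-1.65). The 14 macrophage and dendritic genes, which include antigen-presenting genes, had sums of 985 to 1358 CPM over the NC libraries and 1193 to 4267 over the DN ones, and the 11 T and NK genes had sums of 25.2 to 42.0 and 9.84 to 30.7 CPM. Their part in the immune results was not tested.

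The unfolded protein response, which answers stress of the endoplasmic reticulum, showed in 5 of 24 genes higher, and 1 held, Calr, the chaperone calreticulin (0.76, adjusted p = 0.00833). Without DN replicate 4, 1 was called. The chaperones Hspa5 (0.80) and Hyou1 (0.70) and the oxidase Ero1lb (0.61) had all DN libraries above NC and lost their calls without DN replicate 4. They lost them in 11, 9 and 10 of the 17 alternatives, among them without NC replicate 1 or 3 and with the 8 NC and DN libraries alone. Hspa5 and Ero1lb also lost the call without DN replicate 1, and Hyou1 and Ero1lb without DN replicate 3. Of 17 integrated stress response targets 3 were higher, Ddit3 (1.0), which held, and Chac1 (2.21) and Asns (1.01). Chac1 and Asns lost the call without DN replicate 4 and without any 1 NC library, and Asns also without DN replicate 2. The element of these promoters called ERSE was searched as CCAAT, 9 bases of any kind and CCACG, on either strand. It occurred in promoters of 10 of 21 listed genes (47.6%), of 3 of the 4 called, and of 0.137% of all genes with a promoter window. These 3 are shown, with the element in capitals.
Hspa5, chr2:34771980-34772088, plus strand: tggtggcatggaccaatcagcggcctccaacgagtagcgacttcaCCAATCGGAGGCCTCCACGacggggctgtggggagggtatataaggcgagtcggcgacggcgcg
Calr, chr8:84847030-84847138, minus strand: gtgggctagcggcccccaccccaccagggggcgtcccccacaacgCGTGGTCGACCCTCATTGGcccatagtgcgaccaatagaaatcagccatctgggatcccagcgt
Ero1lb, chr13:12565637-12565745, plus strand: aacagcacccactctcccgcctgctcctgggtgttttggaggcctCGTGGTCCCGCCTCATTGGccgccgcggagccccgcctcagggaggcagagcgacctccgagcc

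Genes of the extracellular matrix fell. Of 39 collagens and matrix proteins 18 fell, 12 of them in all 4 DN libraries, with a median log2 fold change of -0.61 over the list. None was called higher by edgeR, DESeq2 or limma-voom, and 0 were higher at an unadjusted p under 0.05. Col15a1, a collagen of basement membrane zones, had 108, 88.1, 67.9 and 94.0 CPM in NC and 15.2, 23.8, 20.7 and 21.7 CPM in DN (adjusted p = 2.29e-06, log2 fold change -2.13, SE 0.16). Sparc, a matrix-binding glycoprotein, had 290.3, 285, 217 and 281 CPM in NC and 89.5, 97.6, 112 and 120.2 CPM in DN (log2 fold change -1.35). DN stayed below NC for both in every library. Col5a2 fell from 51.1 ± 3.22 to 7.05 ± 5.05 CPM (-2.86), with DN replicate 4 at 14.6 CPM above the other DN libraries at 4.40 to 4.66, and Col5a3 fell by 2.01 on the log2 scale.

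The fibrillar collagens Col1a1 and Col3a1 were not called with all libraries and were called lower without DN replicate 4. Col1a1 had 127, 105, 92.5 and 127 CPM in NC and 12.6, 23.8, 22.8 and 114 CPM in DN (log2 fold change -1.38, adjusted p = 0.203; without DN replicate 4, -2.53 and 0.000203). Col3a1 had 134, 123, 91.8 and 134 CPM in NC and 14.4, 26.8, 21.9 and 177 CPM in DN (adjusted p = 0.446; 2.48e-05 without DN replicate 4). Their values in DN replicate 4 lay in or above the NC range, and those in the other DN libraries were far below it. Fibroblast and pericyte genes fell in 3 of 12 cases, and 5 were called without DN replicate 4, with Postn, a matricellular protein, among the 3 (-1.94). They had sums of 692.4 to 880.4 CPM over the NC libraries and 384.1 to 770 over the DN ones, with DN replicate 4 the highest DN library, and their part in the matrix result was not tested.

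Of 34 laminins, integrins and matrix proteases 2 rose and 5 fell. Lama3 rose from 120.5 ± 8.91 to 198 ± 36.5 CPM (0.71) and held, and Lama1 was called higher (0.60) without holding. Lama4, of vessel walls, fell by 1.11 on the log2 scale and the shared chain Lamc1 by 0.49. Of 31 TGF-beta and BMP genes 3 were called (9.68%, near the background), 2 higher and 1 lower, and 2 lower without DN replicate 4. Ltbp4, which stores latent TGF-beta, had 123, 119.9, 94.8 and 94.6 CPM in NC and 26.1, 45, 44.1 and 24.9 CPM in DN (log2 fold change -1.63), and Bmp6, a ligand of the iron-hepcidin axis, rose from 94.9 ± 9.34 to 182 ± 28.8 CPM (0.94, adjusted p = 0.000332). Krt8, an epithelial keratin in the tubular injury list, rose by 0.47 and was the 1 member of that list of 17 that held, of 4 called higher.

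Insulin and growth hormone signalling had 3 of 28 genes higher and 3 lower. The insulin receptor gene Insr had 250.5, 258, 252 and 304 CPM in NC and 339, 339, 344 and 378 CPM in DN (adjusted p = 0.0199, log2 fold change 0.40, SE 0.10), with every DN library above NC. The call was lost without NC replicate 1, 2 or 3 and with scaling by library size alone, in 6 of the 17 alternatives in all. Igfbp5, which binds insulin-like growth factors, rose by 0.75, and Foxo1 was called higher (0.36) without holding. Igf1 fell from 7.10 ± 3.55 to 2.44 ± 0.377 CPM (-1.54), Mtor by 0.61 on the log2 scale, and Irs1 was called lower (-0.48) without holding. Among hormone and nuclear receptors 4 of 29 fell, and without DN replicate 4, 5 were called lower and 3 higher. The growth hormone receptor Ghr (-0.90) held but lost its call without NC replicate 3 or 4, and Thrb (-0.71), Esr1 (-0.67) and Pparg (-0.93), receptors for thyroid hormone, oestrogen and lipids, did not.

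Genes known to differ by sex in mouse kidney also moved. Of 12 male-biased genes 5 fell and 1 rose, and of 9 female-biased genes 4 rose and 2 fell. Leaving out DN replicate 4 gave 2 male-biased genes called higher and 1 female-biased gene called lower. Kap, Acsm3, Slc7a13 and Odc1 are among the male-biased genes that fell, Cyp4a12a is the 1 that rose, and Cyp4a14, Cyp4a10 and Abcc3 are female-biased genes that rose. Ddx3y, of the Y chromosome, had 345 to 832 counts in NC and 199 to 761 in DN, and Xist had 0 in each NC library and 0 to 5 in DN, so libraries of both groups had the pattern of males.

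Cell cycle and DNA replication genes were called in 21.4% of cases, above the background of 8.23%. The other lists named beside them were at 8.0% or less with all libraries. Of 28 cell cycle and DNA replication genes 6 fell, with 2 that held, Mcm6, of the replicative helicase, from 30.5 ± 2.67 to 15.0 ± 1.44 CPM (-1.02), and Cdc6, which loads it (-1.45). The list's median difference from NC was -0.64, 0.00, -0.51 and -0.52 in DN replicates 1 to 4, and NC replicate 4 stood at 0.69 beside -0.25 to -0.20 in the other NC libraries. Its summed level was 778.1 to 943 CPM in NC and 904.8 to 1117 CPM in DN. Of 25 renal epithelial transcription factors 2 fell, Irx1, with 80.7, 70.0, 92.1 and 82.1 CPM in NC and 41.9, 38.6, 36.5 and 36.3 CPM in DN (log2 fold change -1.08), and Sim2 (-1.05). Both held, and without DN replicate 4, 5 of the 25 were called lower and 1 higher. Of 22 immediate early genes, 18 p53 targets and 28 ubiquitin and small GTPase genes edgeR called 0, with 5, 5 and 2 at an unadjusted p under 0.05 and 2, 1 and 2 called by DESeq2.

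Core machinery lists for respiration, the ribosome and the proteasome stayed near or under the background, with 1 or 2 members called in each. Of 36 nuclear respiratory chain genes 1 was called, of 33 mitochondrial ribosome genes 2, of 39 cytosolic ribosome genes 2, of 31 proteasome genes 1 and of 23 tricarboxylic acid cycle genes 1. The list of proton pump subunits and acid-base genes was above the background, with 3 of 27 higher and 1 lower (14.8% called). The 3 that rose were pump subunits, and 0 of them held. The 1 that fell was Atp6v0c. Atp6v0c, the proteolipid of the proton pump, had 53.5, 61.5, 62.2 and 49.0 CPM in NC replicates 1 to 4 and 6.80, 7.53, 8.52 and 6.96 CPM in DN replicates 1 to 4 (adjusted p = 5.10e-09, log2 fold change -2.92, SE 0.12). Rnps1, which marks spliced junctions, had 40.2, 42.0, 42.5 and 38.0 CPM in NC and 9.42, 8.59, 10.4 and 10.2 CPM in DN (adjusted p = 6.47e-08, log2 fold change -2.08, SE 0.11). The DN values of both were tight and far below NC. Nhp2, of the ribonucleoproteins that guide RNA pseudouridylation, fell by 1.35 on the log2 scale, and the helicase Eif4a1, of translation initiation, fell by 0.80.

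Psmb6, a catalytic proteasome subunit, rose by 2.11, at 1.09, 0.991, 0.783 and 0.333 CPM in NC and 3.73, 2.31, 4.28 and 3.42 CPM in DN. Srp54a, of the signal recognition particle, fell by 2.57 on the log2 scale, but with its copies Srp54b and Srp54c the sum went only from 3.61 ± 0.27 to 2.99 ± 0.97 CPM. Copies and overlapping genes may also affect others of the genes named, since the counting method and its use of strand were not stated in the labels. In GENCODE, 7 of the 12 largest increases share exonic bases with another gene, as do 5 of the 12 largest decreases and 34.9% of all genes tested. Such pairs include Igtp with Irgm2, Ctdnep1 with Elp5, Cxcl16 with Zmynd15, Acsm3 with Eri2 and Methig1 with Higd1c and Mettl7a2. Reads from the shared bases may not be told apart, and the length of the overlaps was not measured.

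Called genes were found in every gene class and level. The share called was 8.3% of protein-coding genes, 7.82% of long non-coding RNAs and 8.77% of pseudogenes, and pseudogenes were higher in 76 cases and lower in 18. By level it ran from 5.8% of genes under 1 CPM to 11.1% of genes over 100 CPM. Among chromosomes with over 100 tested genes it ran from 5.74% on chromosome 2 to 12.8% on chromosome 17. By RefSeq gene order, windows of 20 neighbouring coding genes held up to 8 genes that held in all 4 DN libraries. Over all coding genes tested the share that held was 4.94%. The windows named are among those with the most holding genes of all windows along the chromosomes. One window with 8, on chromosome 17 from Cldn9 to Eci1, held Atp6v0c, Abca3, Rnps1 and Eci1. A window on chromosome 11 with 7 held Srsf1, Cuedc1 and Mrps23. Another with 7, on chromosome 12, held Greb1, Lpin1 and Odc1.

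Single libraries carried some large values that were not differences between groups. Genes highest in DN replicate 4 included Ptgs2, the inducible cyclooxygenase, with 0.429, 0.464, 0.693 and 0.222 CPM in NC and 0.548, 0.370, 0.818 and 42.0 CPM in DN, and Ltf, the neutrophil granule protein lactoferrin, with 51.1 CPM there and at most 1.33 CPM in the other 7 libraries. Selp, Il1rn, Cxcl2 and Acod1 were likewise at 9.69 to 13.2 CPM in DN replicate 4 and at most 0.424 CPM elsewhere. None of these 6 genes was called, with adjusted p from 0.102 to 0.165. In other libraries, Acadvl reached 53.1 CPM in DN replicate 2 and at most 10.5 CPM elsewhere, Uqcrc1 33.3 CPM in DN replicate 1 and at most 7.67, and Fkbp5, a glucocorticoid-responsive gene, 17.0 CPM in DN replicate 3 and at most 2.29.

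List medians by library showed which groups of genes were shared by the DN libraries. The median difference from NC was below that of every NC library in all 4 DN libraries for several lists, among them S3 markers (-2.82 to -1.62), male-biased genes (-2.0 to -0.55), organic ion transporters (-0.60 to -0.19) and collagens and matrix proteins (-0.78 to -0.41). Some of these lists share members, so their medians are not separate results. Slc22a7 and Slc22a19 are in both the S3 and organic ion lists, and Acsm3 and Slc7a13 in both the S3 and male-biased lists. The median difference was above every NC library in all 4 for lists that included interferon-stimulated genes (0.72 to 1.83) and the unfolded protein response (0.23 to 0.75). It was high in DN replicate 4 and within or near the NC range in the others for neutrophil genes (3.74 in DN replicate 4), and tubular injury genes stood at 2.14 there and at -0.03 to 0.56 in the other DN libraries. For red blood cell genes DN replicate 4 was at 2.24 and the other DN libraries were at -2.87 to -2.28.

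**Figure D5:**
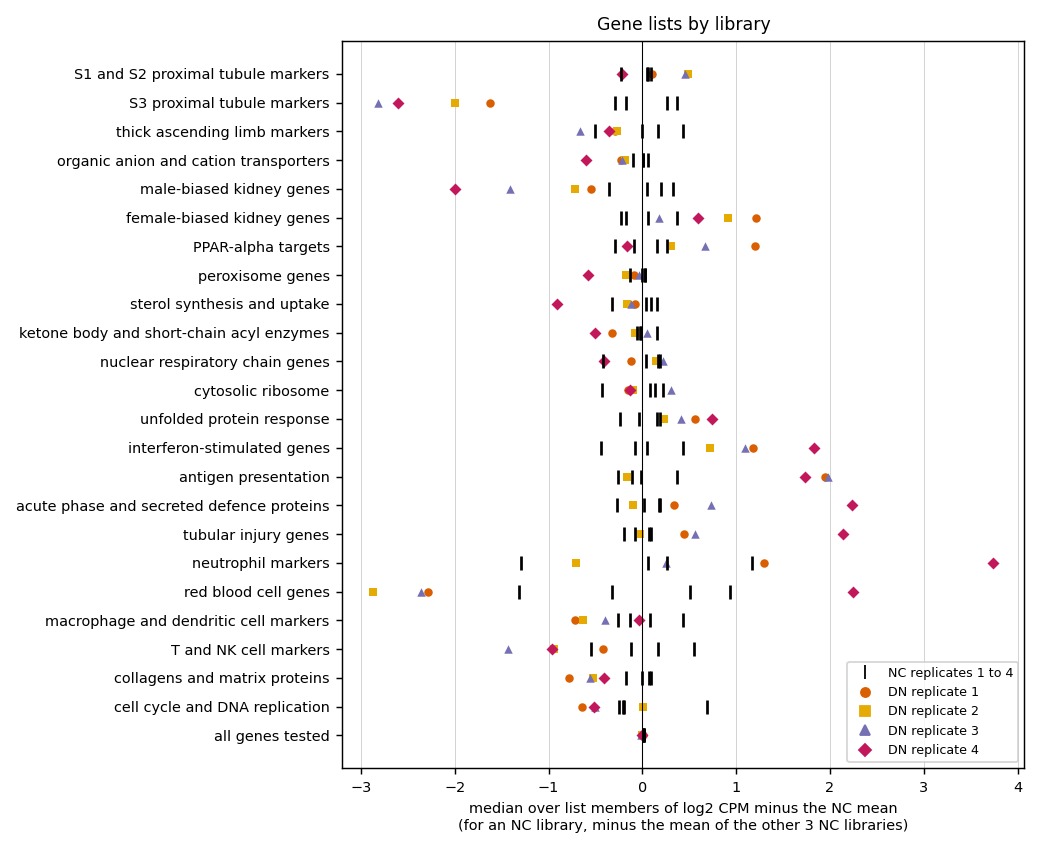
Median over list members of log2 CPM minus the NC mean, for 23 lists and all genes tested, with black ticks for the NC libraries and 1 coloured symbol per DN library. S3 markers and matrix proteins lie to the left of the NC ticks in all 4 DN libraries, interferon-stimulated genes lie to the right in all 4, DN replicate 2 sits at the NC level for antigen presentation, and DN replicate 4 stands alone for tubular injury genes.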

How the data were processed

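RNA was sequenced from 4 NC and 4 DN libraries, and the authors deposited raw counts, whole numbers for each gene symbol. The submitters' processing notes list HISAT2 2.0.4; which program counted the reads, with which strand setting, annotation and genome build, is not given in the sources used here. filterByExpr by group over the 12 libraries kept 17530 genes, with 99.95% or more of the counts in any library. TMM factors over the same libraries set the scale. A model per gene was fitted over the 3 groups together (12 libraries) by edgeR's quasi-likelihood method with robust estimation (edgeR 4.0.16, R 4.3.3), with group as the only term, and p-values were two-sided and Benjamini-Hochberg adjusted over all genes. CPM uses the TMM factors, and log2 CPM a prior count of 2. Between any 2 libraries the chi-square was at least 23.6 per degree of freedom, so none was counted as a repeat.

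The members, the 83 lists and the rule for naming genes were chosen with earlier results of these data known. The text names up to 12 holding genes per direction with the largest fold changes (mean of at least 5 CPM in the higher group). It also names up to 10 with the largest CPM differences, and up to 4 called members per direction of a described list by p. Further named are up to 6 genes highest in 1 DN library, and up to 10 each whose call was lost or gained without DN replicate 4. Some of these calls were also lost without another library. Predicted genes were left out, as were some genes the rule names. Bst2, Isg15, Ifit1, Ifit3 and the organ and sex check genes were named outside the rule. RefSeq (GRCm38.p6) gave gene types and order for 16989 tested genes and promoter windows for 27025 genes, tested or not. GENCODE M21 gave exonic overlaps. Alternatives were other scalings, filters and tests (DESeq2 1.42.0, limma 3.58.1), a replicate block and each library left out.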

Additional observations from a re-analysis of the deposited data

Results flagged for a closer look

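For each named gene, the log2 CPM values of the 4 NC and of the 4 DN libraries were checked for 1 library far from the other 3, by its gap to the nearest library divided by the range of the group (Dixon's ratio, at its 95% critical value). Of 376 groups, 27 passed, and chance gives about 1 in 20. Some genes were named because 1 DN library stood out or its absence changed the call, so that rate does not apply to them. DN replicate 4 accounted for 7 and NC replicate 4 for 8.

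DN replicate 4 was high for Ptgs2 (ratio 0.839), Bcat1 (0.882, at 7.26 CPM beside 2.44 to 2.78), Asns (0.94, at 10.1 beside 4.26 to 4.49), Col5a2 (0.952, at 14.6 beside 4.40 to 4.66) and Insr (0.85), and low for Bdh1 (0.871, at 47.1 beside 80.3 to 87.0) and Cyp51 (0.883, at 24.8 beside 52.5 to 58). DN replicate 3 was high for Ctdnep1 (0.893), Lgmn (0.937, at 2427 beside 1602 to 1645), Ugt1a1 (0.875, at 80.0 beside 30.4 to 34.3), Krt8 (0.859) and Lama3 (0.886), and low for Srsf1 (0.899, at 1.92 beside 8.16 to 9.61) and Acsm3 (0.83). DN replicate 2 was low for Tapbp (0.893, at 2.32 beside 8.66 to 10.1), and DN replicate 1 was low for Abcc4 (0.934).

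NC replicate 4 was high for Mfsd2a (0.919, at 82.5 CPM beside 17.9 to 20.2), Mme (0.842) and Insr (0.85), and low for Rpsa (0.886), Abcc3 (0.851), Pvalb (0.956, at 12.9 beside 24.5 to 25.2), Hspa5 (0.833) and Col5a2 (0.838). NC replicate 2 was low for Cd4 (0.865), NC replicate 3 for Sparc (0.886) and NC replicate 1 for Lama3 (0.851).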

How the results depend on the processing

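The main counts (669 genes higher, 774 lower; 390 and 474 that held) were recomputed under 17 alternatives. DESeq2 called 1031 higher, and a test against a fold of 1.2 (glmTreat) called 385 higher and 470 lower, with 242 and 285 that held. Leaving out each library gave 405 to 950 higher and 527 to 1013 lower, and leaving out each NC library 252 to 332 and 301 to 440 that held. Every other count of called or holding genes stayed within 1.5 times the main one, and lists with at least 2 times the background share numbered 32 to 53. Same-numbered NC and DN libraries had correlations of deviations of -0.086, 0.054, 0.079 and 0.2, and differently numbered ones had -0.274 to 0.216. These few correlations cannot decide whether the replicate numbers pair the samples. With the replicate number as a block, 653 genes were higher and 763 lower, 326 and 399 held, and 1245 of the 1443 calls remained. Of 177 named genes with a call, 136 kept it in every alternative. Of the 12 holding genes that did not, Adamts4 lost it without any 1 NC library and Insr without NC replicate 1, 2 or 3; Ghr, Idi1, Amacr and Slc16a10 lost it without 1 or more NC libraries, and the others under another test, filter or block. Uncalled values reversed for Acadvl (log2 fold change -0.30 without DN replicate 2, up to 3.05 without NC replicate 1) and Uqcrc1 (-0.005 without DN replicate 1, up to 1.66 without DN replicate 4). Of 2822 counts of list members, 537 moved by over 1.5 times, most of them counts of few genes. The causes were not tested. Low counts limit genes under 1 CPM.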
